A study of Mus musculus with 28 samples.

Results

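Ageing of the testis under calorie restriction (CR) was read from the arrays that the labels give as testis and CR. The 2 arrays of animals aged 6 months were set against the 4 arrays of animals aged 16 and 24 months, which makes 6 of the 28 arrays of the series. All were C57BL/6 males, with 2 animals at each age, a different animal on each array and no pooling. The study measured testis and ovary at several ages in mice fed ad libitum (AL) or kept on Caloric Restriction. Its methods state that CR mice were not fed on the day they were killed, and that CR began at 14 weeks of age. Older CR animals had therefore also been on the diet for longer. For comparison, 8 testis arrays of AL C57BL/6 males aged 1, 6, 16 and 24 months, again 2 animals an age, were of the same array version. So were 6 ovary arrays, of 1 C57BL/6 female on each diet at 6, 16 and 24 months, which were set against all 14 testis arrays, those of 1 month included. The labels give both CR testis animals of 24 months 24 months in the title, 22 in the age field and 1 year 10 months in the source name, while the AL males of 24 months have 24 months in both fields and 2 years in the source name. All testis animals of 16 months, on either diet, have 1 year 3 months in the source name, and the AL ovary animals of 16 and 24 months have 15 and 23 in the age field. RNA of the whole testis was labelled green (Cy3) and hybridised beside a red (Cy5) Universal Mouse Reference, RNA pooled from mouse cell lines. Every level below is the log2 ratio of green over red for a probe, so 0 means equal to the reference, and every change is a difference between such levels.

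The day of image extraction in the file headers differed between the sides of the comparison. The 2 CR arrays at 6 months carried the first day, together with all 8 AL testis arrays, and the 4 CR arrays at 16 and 24 months carried the second. Age on CR and extraction day therefore cannot be told apart in any comparison of 6 months with an older age, while 24 against 16 months lay within 1 day. The median green signal was 1.51 and 1.60 times its local background at 6 months, and between 1.33 and 1.53 times on the 4 older arrays. Between 96.8% and 99.6% of the spots were well above background in green on the 6 CR arrays, and between 0.0571% and 0.109% were saturated. The SD over all genes of the difference between the 2 animals of a group was 0.154 at 6 months, 0.15 at 16 months and 0.2 at 24 months. The number of arrays limits the precision of each value.

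The red channel held the same reference RNA on every array. Between the same 4 and 2 arrays, limma called 239 of 38384 genes in the red signal alone (0.623%), 3 higher and 236 lower on the older arrays. Calls in the red and in the ratio used the same limits, namely 1.5-fold or more and a Benjamini-Hochberg adjusted p no higher than 0.1. The red count was 0 when any of the 4 older arrays was left out, against 10544 genes at an unadjusted p under 0.05 with all arrays. It was 1 without replicate 2 at 6 months and 1973 without replicate 1 at 6 months. The part of the arrays in the changes of the ratio was not tested.

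A testis holds seminiferous tubules, in which spermatogonia divide, spermatocytes pass through meiosis and spermatids pack their chromatin with transition proteins and then protamines, all of them nursed by Sertoli cells. Leydig cells between the tubules make testosterone from cholesterol, and resident macrophages lie among them. Calorie restriction lowers food energy without malnutrition and lengthens life in many mouse strains, and reproduction is among the functions it alters.

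The label testis was checked on 12 defining markers, of which 11 were measured. No probe carried the symbol Insl3, which may be among the 24050 probes without a symbol. Set against the ovary arrays, 7 markers were higher in testis at over 2-fold (14.2% of all genes were), 1 was higher in ovary (11.4% of all genes were) and 3 were neither. Sycp3, a part of the meiotic chromosome axis, stood between 4.69 and 4.91 on the 6 CR arrays. Dazl, a germ cell RNA-binding protein, stood between 4.41 and 5.00, and Tnp2, a transition protein of spermatids, between 2.87 and 3.10. The probe given the symbol Acr, the acrosin gene, went against the label, at -0.53 to -0.36 on the CR arrays and higher in ovary. Whether this probe reads acrosin RNA was not tested. Prm1, Prm2 and Tnp1, the most abundant markers of late spermatids, were saturated on all 14 testis arrays, so no change with age is given for them. Prm2 was 1 of the 3 markers that were neither, and saturation limits its 1.87-fold difference from ovary. Ddx4, the germ cell helicase, read 4.42 and 4.31 at 6 months, 3.81 and 3.91 at 16 months, and 3.99 and 4.33 at 24 months, a change of -0.36 that was not called (limma p 0.00769, adjusted p 0.267). The reference channel of the Ddx4 probe rose by 0.45 between the same arrays (limma p 0.0413), and replicate 2 at 24 months overlapped the younger pair. In whole-organ RNA, fewer cells of a type and less RNA per cell cannot be told apart.

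From 6 months to the mean of 16 and 24 months on CR, limma called 7 of 38384 genes (0.0182%), 6 higher and 1 lower, of which 5 had a gene symbol. An unadjusted p under 0.05 was reached by 4764 genes, and the median change over all genes was -0.00721. A change of at least 1.5-fold with an unadjusted p under 0.05 and no overlap between the 2 younger and the 4 older animals was seen for 101 genes in the upward direction (0.263%) and 16 in the downward direction (0.0417%). At the limits that gave the 7 calls, 6 higher and 1 lower, the scanner-processed signals gave 144 higher and 124 lower, the deposited values 94 and 79, and green alone 65 and 210. Limma called 0 without background correction (3537 genes at an unadjusted p under 0.05), with a variance floor (1079) and with only the 6 CR arrays (4406). The 7 calls also depended on single arrays. Without replicate 2 at 6 months limma called 3 genes, 1 higher and 2 lower, 0 of them among the 7. Without replicate 1 at 6 months 40 were called (35 higher), and without replicate 1 at 24 months 31 (27 higher). Without either 16-month CR animal 4 were called. The AL animals entered through the error variance, and 1 gene was called without either AL animal aged 1 month, 13 without either aged 6 months and 4 without either aged 24 months.

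Tshb, the gene of the beta subunit of thyroid-stimulating hormone, had the lowest adjusted p. It read 0.23 and 0.18 at 6 months, 1.14 and 1.04 at 16 months, and 0.81 and 0.79 at 24 months. All 4 older animals lay above the younger pair, with 16 months the higher of the older ages. Tshb rose by 0.74 (SE 0.0572, limma adjusted p 0.00948), and without replicate 2 at 6 months the change of 0.71 had an adjusted p of 0.101. On AL the same probe read 0.62 and 0.68 at 6 months and between 0.99 and 1.19 in the 4 older animals, so the pair of young CR animals was the lowest of the 14 in the plot of the called genes.

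Klf17, a zinc-finger transcription factor, read 1.18 and 0.95 at 6 months, 1.82 and 2.06 at 16 months, and 1.74 and 1.80 at 24 months. The older animals were all above the younger, and Klf17 rose by 0.79 (SE 0.0823, limma adjusted p 0.0371). The call ended without replicate 2 at 6 months (0.68, adjusted p 0.209) and without either AL animal aged 1 month (0.79, adjusted p 0.105). With the green channel alone the change was 0.20 and not called, and the reference channel changed by -0.54 (adjusted p 0.1). AL animals read between 1.10 and 1.68 at all ages, and their change was 0.04.

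Galc, the gene of the lysosomal galactosylceramidase, read 3.11 and 2.95 at 6 months, 3.60 and 3.90 at 16 months, and 3.90 and 3.91 at 24 months. The groups did not overlap, and 3 of the 4 older animals were close together with replicate 1 at 16 months below them. Galc rose by 0.80 (SE 0.104, limma adjusted p 0.0919). The call ended without replicate 2 at 6 months (0.72, adjusted p 0.495), at 16 months (0.72, 0.14) or at 24 months (0.79, 0.156). It also ended without either AL animal aged 1, 16 or 24 months, where the change stayed 0.80 and the adjusted p was 0.176, 0.114 or 0.148.

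LOC381936, a gene with no role known here, read 0.64 and 0.92 at 6 months, 1.90 and 1.87 at 16 months, and 1.64 and 1.57 at 24 months. It rose by 0.97 (SE 0.135, limma adjusted p 0.0919) without overlap, while AL animals moved from 0.79 and 0.76 at 6 months to between 0.81 and 1.74. The call ended without replicate 1 (0.83) or 2 (1.10) at 6 months, replicate 1 (0.96) or 2 (0.97) at 16 months, replicate 2 at 24 months (0.98), and either AL animal aged 1 or 24 months (0.97).

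Srfbp1, whose product binds serum response factor, was the 1 gene called lower. It read 2.21 and 2.2 at 6 months, -0.27 and -0.30 at 16 months, and 1.57 and 2.02 at 24 months. Both 16-month animals stood far below the others, and the 24-month animals lay under the younger pair, so the change was not in order of age. Srfbp1 fell by 1.45 (SE 0.156, limma adjusted p 0.0371). The call ended without replicate 2 at 6 months (-1.46, adjusted p 0.251), replicate 1 (-1.46, 0.132) or 2 (-1.44, 0.107) at 16 months, and either AL animal aged 1 month (-1.45, 0.105). On AL the 16-month animals read 1.61 and 2.15 and the 24-month animals -0.25 and -0.23, so the low level was at 24 months there.

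Probes without a symbol made up 24050 of the genes tested and 2 of the 7 calls. Z00027109-1 read 0.48 on both arrays at 6 months, 2.37 and 2.86 at 16 months, and 2.13 and 1.97 at 24 months. It rose by 1.85 (SE 0.209, limma adjusted p 0.0371), and all 8 AL animals read between 1.70 and 2.58, so the young CR pair stood apart from every other animal. Its call ended without replicate 2 at 6 months (1.85, adjusted p 0.262), replicate 2 at 16 months (1.73, 0.107), and either AL animal aged 1 month (1.85, 0.105). Z00057813-1 read 1.35 and 1.58 at 6 months and between 2.06 and 2.18 in the 4 older animals. It rose by 0.67 (SE 0.0905, limma adjusted p 0.0919) and by 0.73 on AL (adjusted p 0.0542), where 1.58 and 1.26 at 6 months stood below 2.11 to 2.22. The CR call ended without replicate 1 (0.55) or 2 (0.78) at 6 months, replicate 1 (0.68) or 2 (0.66) at 16 months, replicate 2 at 24 months (0.70), and either AL animal aged 1, 16 or 24 months (0.67).

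**Figure D1:**
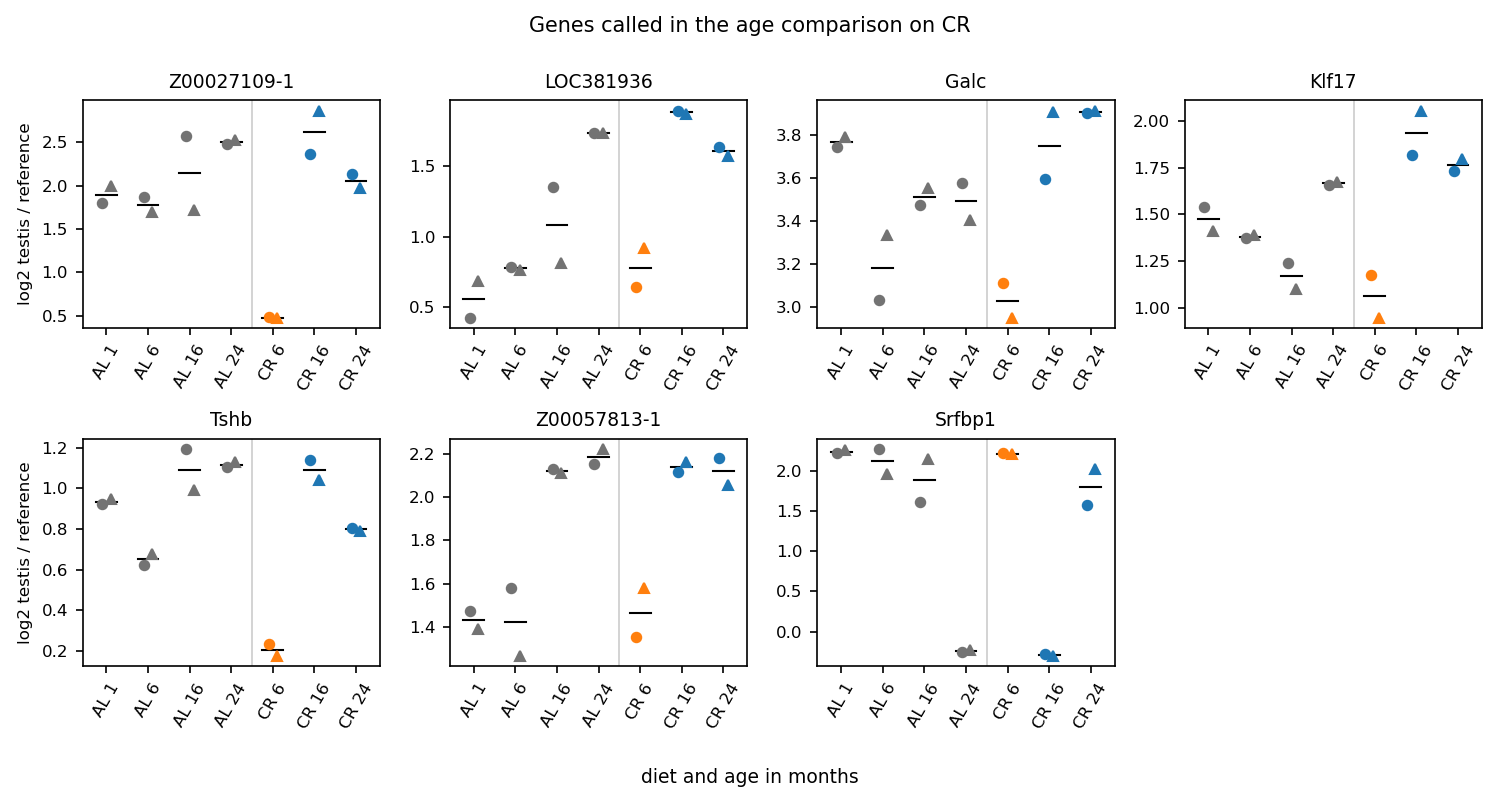
Level of each gene called between 6 months and the older ages on CR, as the log2 ratio of testis over reference (vertical axes), by diet and age in months (horizontal axes). Circles are replicate 1, triangles replicate 2 and bars the mean of both; grey is AL, orange CR at 6 months and blue CR at 16 and 24 months. Tshb was at 0.23 and 0.18 in the young CR animals, and Srfbp1 was low in both CR animals at 16 months and both AL animals at 24 months.

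Of these 7 genes, 6 were over 2-fold higher in testis than in ovary, where 14.2% of all genes were. Tshb was neither higher nor lower by that limit. In the reference channel limma called none of the 7, where 0.623% of all genes were called. Of the 6 higher genes, 2 had an unadjusted p under 0.05 there, both with a change opposite to that of the ratio. Among all genes 10544 reached that p, 5449 of them opposite. The changes of the 7 in that channel ran from -0.54 for Klf17 to 0.12 for Z00057813-1. The test of the difference between the CR and AL age effects called none of the 7 (limma adjusted p between 0.125 and 0.902), with 4234 of all genes at an unadjusted p under 0.05.

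Larger changes than most of these were not called. Among genes with a symbol, 8 changes upward and 6 downward that met the limit of 1.5-fold, an unadjusted p under 0.05 and no overlap are given next as uncalled, with 1 of the 8, Ccl8, whose change of 1.24 was not called here (limma p 0.000141, adjusted p 0.116), described at 24 months below. 4933437N03Rik read 1.78 and 1.79 at 6 months, 3.66 and 4.21 at 16 months, and 3.65 and 3.70 at 24 months, a change of 2.02 (limma p 0.001, adjusted p 0.187). On AL it was also high in 3 of the 4 older animals, at 3.80, 3.95 and 3.79, while replicate 2 at 16 months read 1.72 like the younger animals. Snhg3, a host gene of small nucleolar RNAs, read -1.87 and -1.63 at 6 months, 0.17 and 1.16 at 16 months, and 0.26 and -1.55 at 24 months. The change of 1.76 (limma p 0.0109) came from 3 of the 4 older animals, with replicate 2 at 24 months at the level of the young.

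That split recurred. Tubb6, a beta-tubulin gene, read -3.44 and -3.16 at 6 months, -0.91 and -0.93 at 16 months, and -1.73 and -3.12 at 24 months. 1700084F23Rik read -0.09 and -0.07, then 1.97 and 3.12, then 2.43 and -0.04 at the same ages. LOC435376 read -0.85 and -0.90, then 1.31 and 1.92, then 1.28 and -0.65. In each of these genes replicate 2 at 24 months lay close to the 6-month CR animals, and replicate 1 at 24 months lay with the 16-month pair or between. 1700026J14Rik (0.27 and 0.28, then 1.90 and 2.16, then 1.66 and 0.31) and 4930528D03Rik (1.82 and 1.77, then 3.75 and 3.92, then 3.60 and 2.23) showed it as well. On AL these 7 genes, Snhg3 and 4933437N03Rik among them, were high in replicate 1 at 16 months and both animals at 24 months, and low in replicate 2 at 16 months. For Tubb6 those AL levels were -1.07, -0.87 and -0.86 against -3.29. The uncalled changes of Tubb6, 1700084F23Rik, LOC435376, 1700026J14Rik and 4930528D03Rik were 1.63, 1.95, 1.83, 1.23 and 1.58, with limma p values of 0.0123, 0.0488, 0.0204, 0.0142 and 0.0103.

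The uncalled downward changes had their own order. Nsdhl, an enzyme of cholesterol synthesis, read 0.83 and 0.75 at 6 months, -0.44 and -0.33 at 16 months, and -0.22 and 0.55 at 24 months, a change of -0.90 (limma p 0.00416). Dnajc25, which encodes a J-domain protein, changed by -0.71, from 1.00 and 0.91 to between -0.31 and 0.72. Alad, an enzyme of heme synthesis, changed by -0.60, from 0.14 and 0.27 to between -0.97 and -0.04. In these genes replicate 2 at 24 months was again the older animal nearest to the young. Depdc1b read 0.20 and 0.15 at 6 months, -0.76 and -0.78 at 16 months, and -0.23 and -0.01 at 24 months, a change of -0.62. Efcab7 and the cytochrome P450 gene Cyp2c55 changed by -0.66 and -0.59, and in both the 4 older animals lay below the younger pair. The cause of the split between animals was not tested.

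**Figure D2:**
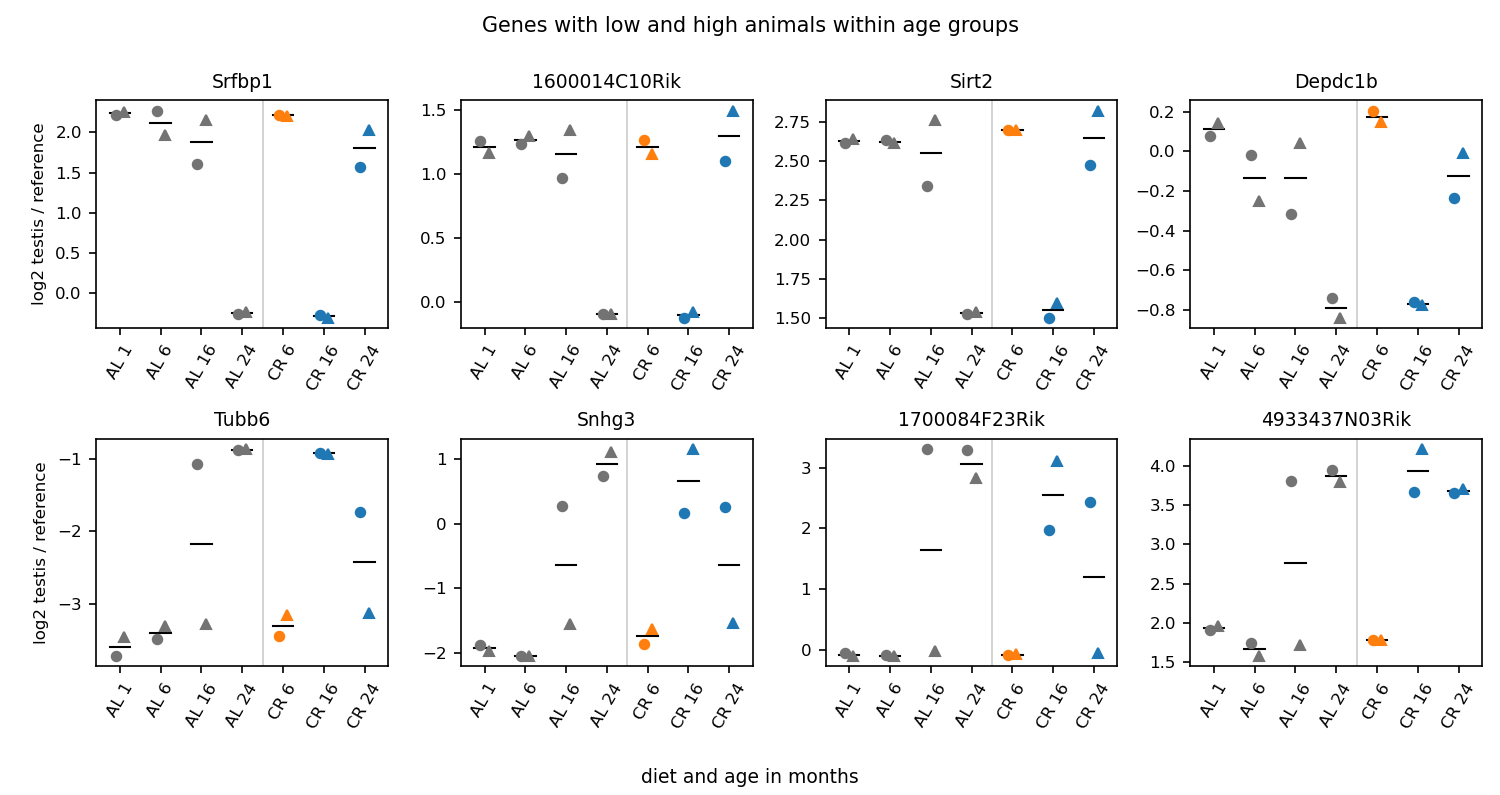
Level of genes on which older animals differed, within 1 age and diet (as for Tubb6) or between ages (as for Srfbp1 and Sirt2). Levels are the log2 ratio of testis over reference (vertical axes), by diet and age in months (horizontal axes). Circles are replicate 1, triangles replicate 2 and bars the mean; grey is AL, orange CR at 6 months and blue CR at 16 and 24 months. Tubb6 was at -0.91 and -0.93 in the CR animals at 16 months and at -3.12 in replicate 2 at 24 months, near -3.44 and -3.16 at 6 months.

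The comparisons of 16 with 6 months and of 24 with 6 months share the 2 young CR animals, so their values are only set side by side. Limma called 8 genes at 16 months (0.0208%), 3 higher and 5 lower, and 8 at 24 months (0.0208%), 8 higher and 0 lower. At 1.5-fold and an unadjusted p under 0.05, limma gave 176 higher and 67 lower at 16 months and 166 higher and 29 lower at 24 months. With scanner-processed signals limma called 67 higher and 54 lower at 16 months and 168 and 140 at 24 months, with deposited values 43 and 35, then 112 and 92, and with green alone 1 and 4, then 138 and 502. Tshb rose by 0.89 at 16 and by 0.59 at 24 months, and Klf17 by 0.88 and 0.71. Z00042830-1 was called in both with opposite signs, at 2.43 and 2.21 at 6 months, 1.46 and 1.54 at 16 months, and 2.89 and 2.96 at 24 months. It fell by 0.82 at 16 months and rose by 0.60 at 24 months, while all 8 AL animals read between 1.21 and 1.56.

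At 16 months the lower genes were Srfbp1, which fell by 2.49, 1600014C10Rik, Sirt2, Depdc1b and Z00042830-1. 1600014C10Rik read 1.26 and 1.15 at 6 months, -0.12 and -0.08 at 16 months, and 1.10 and 1.49 at 24 months, and fell by 1.31 (limma adjusted p 0.0303). Sirt2, an NAD-dependent deacetylase, read 2.70 on both arrays at 6 months, 1.5 and 1.60 at 16 months, and 2.48 and 2.82 at 24 months, and fell by 1.15 (adjusted p 0.0449). The other Sirt2 probe changed by -0.0895, so the probes of the gene disagreed. In both genes the 16-month pair stood alone on CR, and the AL animals at 24 months had the same low levels, -0.10 on both arrays for 1600014C10Rik and 1.52 and 1.54 for Sirt2. Depdc1b fell by 0.94 (adjusted p 0.07), and Z00027109-1 rose by 2.13 (adjusted p 0.0443).

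Single arrays decided most calls at 16 months. The count of 8, 3 higher and 5 lower, became 33 without replicate 1 at 6 months (27 higher and 6 lower), 3 and 5 without replicates 1 and 2 at 16 months (2 and 4 of them higher), 16 without either CR animal aged 24 months (11 higher), and 5, 32 and 3 without either AL animal aged 1, 16 or 24 months (2, 21 and 1 higher). The calls of Srfbp1 and Tshb stayed in all 14 fits without 1 array. Klf17 lost its call without replicate 2 at 6 months (0.76), replicate 2 at 16 months (0.76) or either AL animal aged 24 months (0.88). 1600014C10Rik lost it without replicate 2 at 6 months (-1.37), replicate 1 (-1.29) or 2 (-1.33) at 16 months, or either AL animal aged 24 months (-1.31). Z00042830-1 lost it without replicate 1 (-0.78) or 2 (-0.86) at 16 months. Z00027109-1 lost it without replicate 2 at 6 months (2.13), replicate 1 (2.38) or 2 (1.89) at 16 months, or either AL animal aged 1 or 24 months (2.13). Sirt2 and Depdc1b lost it without either CR animal aged 6 months (-1.15 for Sirt2, -0.91 and -0.97 for Depdc1b) or 16 months (-1.10 and -1.20, -0.95 and -0.94), and without either AL animal aged 1 or 24 months (-1.15, -0.94).

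At 24 months Ccl8, a chemokine that draws monocytes, had the largest called change. It read 0.06 and 0.25 at 6 months, 1.24 and 0.53 at 16 months, and 1.92 and 1.89 at 24 months. The ages stood in order without overlap, Ccl8 rose by 1.75 at 24 months (limma adjusted p 0.0978), and the 16-month change of 0.73 was not called. AL animals read 0.91 and 1.45 at 6 months, 1.01 and 0.66 at 16 months, and 2.15 and 1.92 at 24 months, so the ages did not stand in order on AL. Ccl8 is 1 of 33 genes that the study names for CR in testis, a list that is not independent of these arrays. Cwh43 read 0.42 and 0.23 at 6 months and 1.00 and 1.05 at 24 months, and rose by 0.70. Il31, the gene of a T cell cytokine, read 3.76 and 3.59 at 6 months and 4.22 and 4.39 at 24 months, and rose by 0.63. Z00072210-1 (1.94 and 1.92 against 2.63 and 2.70) rose by 0.74, and Z00073799-1 (1.32 and 1.20 against 1.83 and 1.96) by 0.63.

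The count of 8 at 24 months became 0 without replicate 2 at 6 months, 448 without replicate 1 at 24 months (277 higher and 171 lower), 5 without replicate 2 at 24 months (4 higher), 40 without replicate 1 at 6 months (36 higher), 3 without either CR animal aged 16 months, and 0, 17 and 0 without either AL animal aged 1, 6 or 24 months. With all arrays, 4689 genes had an unadjusted p under 0.05 in limma. Each of the 8 genes lost its call without replicate 2 at 6 months, with changes of 0.59 for Klf17, 1.84 for Ccl8, 0.57 for Tshb, 0.55 for Il31, 0.50 for Z00042830-1, 0.61 for Cwh43, 0.73 for Z00072210-1 and 0.58 for Z00073799-1. Each also lost it without replicate 2 at 24 months (0.67, 1.77, 0.60, 0.54, 0.57, 0.67, 0.70 and 0.57 in that order) and without either AL animal aged 1 or 24 months. Ccl8 and Z00072210-1 lost it too without replicate 1 at 6 months (1.66 and 0.74). With unchanged differences, Klf17, Il31, Z00042830-1 and Cwh43 lost it without either CR or either AL animal aged 16 months, Ccl8 without either AL animal of that age and Tshb without either CR animal of that age.

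Between 24 and 16 months on CR, the comparison within 1 extraction day, limma called 3 genes (0.00782%), 3 higher and 0 lower, with 1921 genes at an unadjusted p under 0.05. Z00042830-1 rose by 1.42 (adjusted p 0.000547), Srfbp1 by 2.09 (0.0127) and 1600014C10Rik by 1.40 (0.0229). Srfbp1 and 1600014C10Rik moved back towards the level of the young from the low level of both 16-month animals, and Z00042830-1 went above the level at 6 months. Without replicate 1 at 16 months Srfbp1 (2.1, adjusted p 0.264) and 1600014C10Rik (1.38, 0.483) lost their calls, and 1600014C10Rik lost it without replicate 2 at 16 months (1.42, 0.163). The count of 3 became 1 and 6 without replicates 1 and 2 at 16 months (1 and 2 of them higher), 67 and 7 without replicates 1 and 2 at 24 months (32 and 7 higher), and 5 without either CR animal aged 6 months or either AL animal aged 16 months. Uncalled upward changes were those of the defensin genes Defa29 (1.74) and Defa3 (1.33) and of Vmn2r29 (1.32), a vomeronasal receptor gene. Uncalled downward changes were those of Dapp1 (-2.25), an adaptor of B cell signalling, Tubb6 (-1.51), the autophagy protease gene Atg4c (-1.44), the immunoglobulin kappa locus Igk (-1.43) and the kinase gene Map4k1 (-1.42). Igk read 2.36 and 2.08 at 16 months and 1.25 and 0.33 at 24 months, and the 6-month animals read 0.31 and 0.37. Dapp1, Map4k1 and Atg4c had the same order, with replicate 2 at 24 months at the level of the young. Without that animal the changes were -0.755 for Dapp1, -0.611 for Map4k1, -0.682 for Atg4c and -0.809 for Tubb6.

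The same ages on AL involve other animals and lie within 1 extraction day. There limma called 62 genes (0.162%), 54 higher and 8 lower, a count of 1 to 261 when single AL arrays were left out, with the balance of direction turning in some of these fits. Without replicate 1 aged 24 months it was 1 (lower), without replicate 2 aged 24 months 7 (all higher), without replicate 2 aged 6 months 8 (4 higher and 4 lower) and without replicate 1 aged 6 months 261 (59 higher and 202 lower). It was 139 without either AL animal aged 1 month, 8 and 103 without replicates 1 and 2 aged 16 months, 16 without either CR animal aged 6 months and 20 without either aged 16 months. Of the 54 genes higher on AL, 15 were higher and 39 lower with age on CR, with medians of 0.73 on AL and -0.17 on CR. Their median level at 6 months was 0.51 on AL and 0.92 on CR, and at 1 month on AL it was 0.89. These 54 genes were chosen by their rise from 6 months on AL. Their AL median change and a low AL level at 6 months therefore follow in part from the choice. Of the 8 genes lower on AL, 2 were higher and 6 lower on CR, with a median of -0.25 on CR. Of the 101 genes that were higher with age on CR by the limit without overlap, 90 were higher on AL too, and all 16 lower genes were lower on AL. Of all 38384 genes, 17819 were higher and 20565 lower on AL, and 17942 and 20442 on CR. Over all 38384 genes, which are not independent replicates, Pearson's r between the age effects was 0.333 and Spearman's rho 0.141.

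The test of the difference between the age effects of the diets called 9 genes (0.0234%), 2 more positive and 7 more negative on CR. Zbtb7a, a transcriptional repressor gene, read -0.34 and -0.24 on CR at 6 months and between -0.76 and -0.38 in the 4 older CR animals. On AL it read -0.73 and -0.68 at 6 months and between -0.12 and 0.07 in the older animals, so the diets moved in opposite directions, with a difference of -0.95 (limma adjusted p 0.0517). Pa2g4, a growth-linked RNA-binding protein gene, read -0.30 and -0.15 at 6 months, -0.43 and -0.58 at 16 months, and -0.77 and -1.29 at 24 months on CR. Its AL animals went from -1.01 and -1.20 at 6 months to between -0.20 and -0.10, a difference of -1.49 (0.0866). Topors, a ubiquitin and SUMO ligase gene, and Tbc1d15, a regulator of Rab GTPases, had differences of -1.01 and -1.21 (0.0866 each). Prrt3 differed by 0.60 (0.0866), with 1.83 and 1.80 at 6 months and 1.94 to 2.35 later on CR. In these 5 genes the CR age effect by itself was not called, at -0.27, -0.55, -0.29, -0.45 and 0.32. Each of the 5 lost its call without replicate 2 of the CR animals aged 6 months, with differences of -0.91 for Zbtb7a, -1.42 for Pa2g4, -1.03 for Topors, -1.14 for Tbc1d15 and 0.59 for Prrt3. Each also lost it without either CR or either AL animal aged 16 months, AL replicate 2 aged 6 months or AL replicate 1 aged 24 months, and 4 of them without yet other arrays. The call count was 0 without replicate 2 of the CR animals aged 6 months or replicate 1 aged 16 months, 1 without replicate 2 aged 16 months, 60 without replicate 1 aged 24 months (13 more positive and 47 more negative) and 21 without replicate 1 aged 6 months (18 and 3). Among the AL arrays it was 55 without either aged 1 month, 49 and 2 without replicates 1 and 2 aged 6 months (30 and 2 of them more positive), 1 without either aged 16 months, and 1 and 4 without replicates 1 and 2 aged 24 months.

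Gene lists were read by their counts and medians. In 38 lists limma called 0 members between 6 months and the older ages on CR, where 0.0182% of all genes were called and the median of all genes was -0.00721. The numbers of members at an unadjusted p under 0.05 are given with each list, beside 12.4% of all genes. Of the 24 other fits 12 can move a CR median, and a list was compared over these by the sign of its median. The other 12 leave the CR means as they are or, with additive terms, take the age term from AL animals. The sign held in all 12 for the lists of spermatogonia, Sertoli, Leydig, peritubular and endothelial cells, MHC class II, antioxidant enzymes, electron transport and the proteasome. It held in 11 for spermatid chromatin, immediate early genes, the mitochondrial ribosome, heat shock, glutathione transferases, histones and the ageing and DNA repair list of the study. It held in 10 for the defining markers, meiosis, flagellum, mast cells, epididymis, collagen, fatty acids, olfactory receptors and Speer genes, and in 9 for macrophages, fat cells, longevity and the clock. For B cells, red blood cells, complement and the genes the study names for CR it held in 8, for interferon response, cholesterol synthesis and the cytosolic ribosome in 7, for T cells in 6 and for the Y chromosome in 5. A kept sign did not mean a kept size. Over the 12 fits the median ran from 0.000266 to 0.0817 for Sertoli and from -0.0827 to -0.000411 for endothelial cells. It ran from -0.061 to -0.00353 for peritubular cells and from -0.111 to -0.0197 for electron transport.

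Of 19 genes of spermatogonia, the dividing germ cells, 15 were measured with a median of -0.0553, and 1 was higher and 0 lower at an unadjusted p under 0.05. The highest of them was Id4, a stem cell regulator, at 1.39 and 0.82 at 6 months and 1.52 to 1.78 later (change 0.55, limma p 0.00369). The brightest probes of the list were those of Stra8, Uchl1 and Lin28a, which changed by 0.08, -0.0057 and -0.06. Of 31 genes of meiotic spermatocytes 26 were measured, with a median of 0.0495 and 1 higher and 2 lower at that p. Ldhc, the lactate dehydrogenase of spermatocytes and sperm, was saturated on all testis arrays, and Pgk2 and Meig1, the latter saturated on 4 of the 14, changed by 0.01 and 0.0021. Of 27 genes of spermatid chromatin and acrosome 26 were measured, with a median of 0.0612 and 0 at an unadjusted p under 0.05 in limma. Its brightest members were the saturated Prm1, Tnp1 and Prm2, and without the 6 members saturated on any testis array, left out after the data were seen, the median was 0.041. Of 26 genes of the sperm flagellum 23 were measured, with a median of 0.045 and 2 higher and 1 lower. Ropn1l was saturated, and Smcp and Tekt1 changed by 0.04 and -0.05. The medians of the last 3 lists kept their sign in 10, 11 and 10 of the 12 fits that can move them, and all 3 turned negative without replicate 2 at 6 months (-0.0518, -0.00588 and -0.0271).

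Of 22 Sertoli cell genes 21 were measured, with a median of 0.0145 and 2 higher and 0 lower at an unadjusted p under 0.05. Ctsl, Aard and Clu, the brightest, changed by 0.29, 0.15 and -0.02. Of 18 genes of Leydig cells and steroid synthesis 15 were measured, with a median of 0.13 and 2 higher and 0 lower, and 13 of the 15 had a positive change. The Leydig median lay between 0.0437 and 0.2 in the 12 fits and was -0.129 on AL. AL replicate 2 at 6 months stood apart, with a Leydig list mean of 1.48 against 0.958 in replicate 1 and 0.887 to 1.08 in the older AL animals. It was also above replicate 1 for the Sertoli (1.66 against 1.06), complement (0.431 against -0.125) and collagen (-0.923 against -1.39) lists, and the part of this animal in the AL medians was not tested. Cyp17a1, a steroid hydroxylase and among the 3 brightest members, read 2.19 and 2.42 at 6 months, 2.70 and 2.79 at 16 months, and 2.87 and 2.73 at 24 months. The older animals were higher without overlap, but the change of 0.47 was not called (limma p 0.0391, adjusted p 0.374). On AL Cyp17a1 read 2.96 and 3.64 at 6 months and 2.49 to 3.07 later, so the first of the young AL animals lay within the older ones (difference between diets 1.08, limma p 0.00327). Cyp11a1, which makes pregnenolone from cholesterol, read 0.67 and 1.05 at 6 months and 1.11 to 1.51 later on CR, and 1.56 and 2.46, then 0.85 to 1.44 on AL (difference 1.38, limma p 0.00355). Neither difference was called. Scarb1 and Hsd3b6, the brighter 2 of those 3, changed by 0.10 and 0.06.

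Of 10 genes of peritubular and smooth muscle cells 7 were measured, with a median of -0.0175 and 0 at an unadjusted p under 0.05 in limma, and Mylk, Actg2 and Tagln changed by 0.02, -0.0175 and -0.24. Of 12 endothelial genes 11 were measured, with a median of -0.0483 and 1 higher and 1 lower. Cldn5, Vwf and Esam changed by 0.21, 0.11 and -0.12. All 7 of the mast cell genes were measured, with a median of -0.0265 and 1 higher at that p, and Cma1, Tpsb2 and Fcer1a changed by 0.02, -0.05 and -0.08. Of 8 red blood cell genes only Slc4a1 and Epb42 were measured, at changes of 0.03 and 0.0077 with a median of 0.0192. No probe carried the symbols of the other 6, globin genes among them, which may be among the probes without a symbol. All 10 fat cell genes were measured, with a median of 0.0501 on CR and -0.246 on AL, and 0 at an unadjusted p under 0.05 in limma on CR. The fat cell median changed its sign without replicate 1 at 6 months (-0.0236), without replicate 1 at 16 months (-0.0358) and without background correction (-0.0138). On AL the list mean was 1.04 and 1.77 at 6 months and 0.712 to 1.52 later. Adipoq, Car3 and Cidea changed by 0.24, 0.06 and -0.06. Of 11 epididymis genes 7 were measured, with a median of -0.0119 and 1 lower, and Adam28, Gpx5 and Lcn9 changed by 0.0078, -0.0119 and -0.02. The fat cell and epididymis lists ask whether tissue beside the testis changed its share. The part of all the lists of this paragraph in other results was not tested.

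Of 8 MHC class II genes, which present antigen to T helper cells, 5 were measured, and 2 were higher and 0 lower at an unadjusted p under 0.05. Their median was 0.251, against -0.0356 on AL. It was 0.142 without replicate 1 at 16 months and 0.0145 with the deposited values, which cover 3 of the genes. The list mean was 0.327 and 0.397 at 6 months, 0.637 and 0.393 at 16 months, and 0.655 and 0.798 at 24 months, so replicate 2 at 16 months overlapped the young. Cd74, the invariant chain, read -0.44 and -0.25 at 6 months, 0.13 and -0.18 at 16 months, and 0.63 and 0.90 at 24 months. The ages stood in order without overlap, with a change of 0.72 (limma p 0.00159, adjusted p 0.197). Within the second extraction day Cd74 was 0.79 higher at 24 than at 16 months (p 0.00224). H2-Eb1, a class II beta chain, read 0.43 and 0.46 at 6 months, 0.67 and 0.55 at 16 months, and 0.83 and 0.86 at 24 months, a change of 0.28 (limma p 0.00255) against -0.22 on AL. H2-DMb1 changed by 0.25, H2-DMa by 0.04 and Ciita, the transactivator, by 0.0067, and no probe carried the symbols H2-Aa, H2-Ab1 or H2-Ea, which may be among the probes without a symbol. None of these was called, and H2-Eb1, H2-DMa and Ciita had the brightest probes.

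Of 16 macrophage genes 15 were measured, with a median of 0.00444 and 0 higher and 2 lower at an unadjusted p under 0.05. The lower were Adgre1, which encodes a macrophage surface receptor, at -1.5 and -1.35 at 6 months and -1.82 to -1.72 later (change -0.35, limma p 5.64e-05, adjusted p 0.101), and Clec7a, the beta-glucan receptor dectin, with -0.37. Csf1r, Tyrobp and Aif1, the brightest, changed by 0.06, 0.02 and 0.0044, so the members did not move together. Of 14 complement genes 12 were measured, with a median of 0.0121 and 1 higher and 1 lower. C1qa, which macrophages make, read 1.79 and 1.78 at 6 months, 2.16 and 2.30 at 16 months, and 2.64 and 2.98 at 24 months, in order of age (change 0.73, limma p 0.00894, adjusted p 0.275). C3 and C2 changed by 0.18 and 0.0074. Of 12 T cell genes 11 were measured, with a median of -0.00944 and 1 higher, and Thy1, Cd4 and Cd3e changed by -0.0094, -0.04 and -0.07. All 11 B and plasma cell genes were measured, with a median of -0.00872 and 1 higher and 1 lower, and Ighm, Pou2af1 and Ms4a1 changed by 0.08, -0.0087 and -0.0154. Of 20 interferon response genes 16 were measured, with a median of -0.0108 and 2 higher and 2 lower, and Irf7, Isg15 and Rsad2 changed by -0.0125, -0.07 and -0.16.

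Proteasome subunits, which degrade tagged proteins, had 35 of 39 genes measured, with 5 positive and 30 negative changes, and 0 higher and 6 lower at an unadjusted p under 0.05. Their median was -0.0825, against 0.0165 on AL, and lay between -0.152 and -0.0397 in the 12 fits. The mean level of the list was -0.0334 and 0.0216 at 6 months, -0.0836 and -0.0846 at 16 months, and -0.0548 and -0.261 at 24 months. All 4 older animals were below the younger pair, and replicate 2 at 24 months, whose green signal was nearest to background, was the lowest. On AL the list mean was -0.14 and -0.0472 at 1 month, -0.136 and -0.0173 at 6 months, and -0.175 to 0.0301 later. The lowest p was that of Psmd10, at -0.66 and -0.57 at 6 months and -0.88 to -0.73 later (change -0.18, limma p 0.00158), and Psmb5, Psmc2 and Psma6, the brightest, changed by 0.02, -0.0162 and -0.16. Of 67 genes of the mitochondrial ribosome 63 were measured, with a median of -0.0711 (-0.117 to 0.0119 in the 12 fits, -0.0433 on AL) and 0 higher and 11 lower. Mrpl11, Mrpl39 and Mrpl20 changed by 0.02, -0.09 and -0.14. Of 68 genes of mitochondrial electron transport 67 were measured, with a median of -0.0703 (-0.0479 on AL) and 2 higher and 6 lower. Cox8c, the testis form of a cytochrome oxidase subunit, was saturated on 10 of the 14 testis arrays and is given no change, and Cox6a1, saturated on 1, and Ndufb8 changed by 0.13 and -0.05. Of 69 genes of the cytosolic ribosome 68 were measured, with a median of -0.00352, and 34 positive and 34 negative changes. Rps29 and Rps14 were saturated on 5 and 2 of the 14 testis arrays, which limits their changes of 0.07 and -0.02, Rpl39l changed by -0.03, and 0 members were higher and 1 lower at that p.

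Of 72 heat shock and DnaJ genes 68 were measured, with a median of -0.054 and 4 higher and 5 lower at an unadjusted p under 0.05. Hsp90aa1 was saturated on 12 of the 14 testis arrays, and Dnajb14 and Dnajb8 changed by 0.09 and -0.09. Dnajc28 was called on AL by limma, at 0.63, and changed by 0.04 on CR. Of 24 antioxidant enzymes 23 were measured, with a median of -0.0779, 17 negative changes and 1 lower at that p, and the median lay between -0.109 and -0.00198 in the 12 fits. Txnrd3, Prdx4 and Gpx4, the brightest, changed by 0.10, -0.12 and -0.24. Of 19 glutathione transferases 18 were measured, with a median of 0.106 (-0.0506 on AL), and 3 higher and 0 lower. The median kept its sign in 11 of the 12 fits, with -0.0283 without replicate 1 at 6 months, and was 0.0822 without the 2 members saturated on any testis array. Gstm5 was saturated, and Gstm1, saturated on 2 testis arrays, and Gstm3 changed by 0.30 and 0.21. Of 31 histone genes 29 were measured, with a median of -0.036 and 0 higher and 6 lower. H1f7, the spermatid linker histone, was saturated on 12 testis arrays, and H2al2a and H2az1 changed by 0.13 and -0.17.

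Of 25 genes of longevity and nutrient sensing 21 were measured, with a median of 0.0359 and 3 higher and 4 lower at an unadjusted p under 0.05, among the lower the Sirt2 probe above. Ppargc1a, Sirt3 and Terf1 changed by 0.22, 0.07 and -0.31. Of 19 clock genes 15 were measured, with a median of -0.0153 and 2 higher, and Per1, Cry1 and Dbp changed by 0.28, -0.07 and -0.08. Of 18 genes of cholesterol synthesis 11 were measured, with a median of 0.037 and 1 higher and 1 lower, the latter Nsdhl. The median kept its sign in 7 of the 12 fits (-0.0786 to 0.0784). It was -0.159 on AL, where the list mean of replicate 2 at 6 months, 0.0689, stood apart from -0.381 in replicate 1 and -0.461 to -0.38 later. Dhcr7, Sqle and Fdps changed by 0.28, -0.04 and -0.14. Of 21 genes of fatty acid use and synthesis 20 were measured, with a median of 0.0355 and 2 higher and 1 lower, and Ucp2, Cpt2 and Hadhb changed by 0.11, -0.10 and -0.11. All 14 immediate early genes were measured, with a median of -0.0847 (0.0894 with green alone) and 1 higher and 3 lower, and Dusp1, Nr4a1 and Klf4 changed by -0.03, -0.07 and -0.52. Of 25 collagen and matrix genes 20 were measured, with a median of -0.0404 and 0 higher and 1 lower, and Sparc, Dcn and Timp3 changed by 0.05, -0.02 and -0.27.

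Of 12 Y chromosome genes 11 were measured, with a median of -0.00428 and 0 at an unadjusted p under 0.05 in limma, and Ssty1, Ssty2 and Eif2s3y changed by 0.07, 0.05 and -0.14. Of 9 Speer genes, a testis family, 8 were measured, with a median of 0.0476 and 0 at that p, and Speer4b, Speer2 and Speer6-ps1 changed by 0.17, 0.02 and -0.08. Of 642 olfactory receptor genes 636 were measured, with a median of -0.00397 and 21 higher and 15 lower. Olfr114, its brightest probe, read 2.78 and 2.41 at 6 months and 2.97 to 3.51 later, a change of 0.63 that was not called (limma p 0.00782), and Olfr571 and Olfr152 changed by 0.02 and -0.06. Of 12 defining markers of the testis 11 were measured, with 1 higher (Cyp17a1) and 1 lower (Ddx4). The 8 without saturation had a median of 0.0401. With all 11, a median that turned negative without replicate 2 at 6 months (-0.011) or at 16 months (-0.00281), the middle value was that of a saturated probe.

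Of the lists taken from the study, that of the genes named for CR was chosen by it on these animals and is not independent. The list of ageing, DNA repair and heat shock was compiled by the study from outside sources such as gene annotations and the literature. All 33 genes it names for CR in testis were measured, with a median of -0.00897 and 4 higher and 4 lower at an unadjusted p under 0.05. Ccn3, a matricellular protein gene, read -3.53 and -3.47 at 6 months, -3.68 and -3.81 at 16 months, and -4.05 and -4.16 at 24 months, in order of age (change -0.43, limma p 0.000728, adjusted p 0.181). Its AL change was 0.02. Clec7a and the keratin gene Krt17 changed by -0.37 and -0.14, and Cpt1b, which carries fatty acids into mitochondria, by 0.38 with overlap. Speer4b, Creg1 and Grin2b, the brightest, changed by 0.17, -0.29 and -0.29. Of the 218 genes of ageing, DNA repair and heat shock that the study lists, 208 were measured, with a median of -0.0343 (-0.0751 to 0.0409 in the 12 fits) and 3 higher and 15 lower. Fancg, a Fanconi anaemia gene of DNA repair, read 0.41 and 0.22 at 6 months and 0.74 to 0.93 later, with a change of 0.48 (limma p 5.64e-05, adjusted p 0.101). Besides the saturated Hsp90aa1, its brightest members Dnajb14 and Ube2n changed by 0.09 and -0.03. On AL limma called Terf2, a telomere-binding protein gene, at 0.63, and on CR it changed by -0.29.

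**Figure D3:**
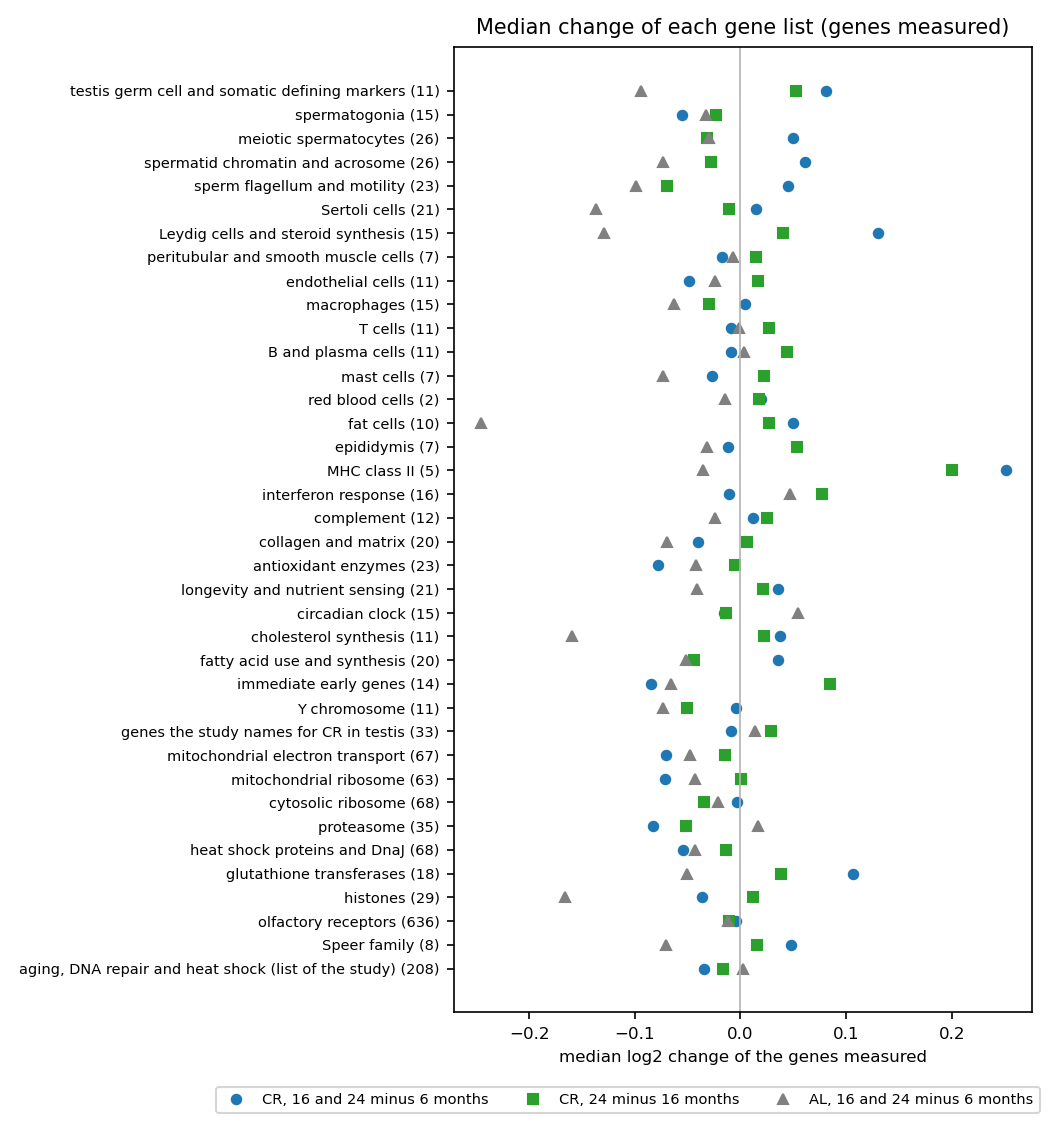
Median change with age of the measured genes of each list, in log2 (horizontal axis), with 1 line for each list and the number of genes measured in brackets. Blue circles are CR at 16 and 24 minus 6 months, green squares CR at 24 minus 16 months and grey triangles AL at 16 and 24 minus 6 months. The MHC class II genes had a median of 0.251 on CR and -0.0356 on AL, and the proteasome genes -0.0825 and 0.0165.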

How the data were processed

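The spot signals were deposited as intensity, the mean pixel brightness that Agilent Feature Extraction A.7.5.1 read from the scanner images, with no background subtraction or normalization. The deposited series table holds log10 values, the green signal adjusted by the authors for the red reference, with array medians between 3.14 and 3.16. Each testis array was background-corrected (normexp, offset 50) and loess-normalized with limma 3.58.1 in R 4.3.3. Control spots and spots marked as outliers were left out, replicate spots of a probe were averaged, and 41202 of 42006 probes had a value on all 14 testis arrays. Where several probes had the same symbol the brightest stood for the gene, and each probe without a symbol was kept as a gene of its own, which gave 38384 genes, 14334 with a symbol.

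Symbols came from the study's supplementary tables (5851 probes) and from accessions of the earlier array version found in RefSeq (14758 probes). Most of these tables list genes chosen by a difference, so naming may be denser among such genes. The members and lists were chosen with earlier results of these data known.

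Limma fitted 1 mean for each age and diet over the 14 testis arrays, with the error variance from all of them. The study also kept the error variance of a gene from falling below a moving average over genes of similar intensity. This floor was not in the fit reported and was run as an alternative, which called 0 genes in each age comparison and in the difference between diets. Genes were called at an adjusted p of at most 0.1 and at least 1.5-fold, and testis against ovary at over 2-fold. For 2 against 4 arrays an exact permutation of labels has 15 arrangements and cannot give a two-sided p under 0.0667. The pipeline was tested on simulated data.

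Named were the 12 largest rises and falls called in the CR comparison, filled with uncalled changes at an unadjusted p under 0.05, 1.5-fold and no overlap. Also named were called members and the 3 brightest members of each list, the 5 largest changes either way from 16 to 24 months, the genes called on AL (here by counts), the 5 lowest p between diets, and up to 3 called probes without a symbol either way. Genes outside these rules (Cd74, H2-DMb1, C1qa, Adgre1, Clec7a, Id4, Psmd10, Cyp11a1, Ccn3, Krt17, Cpt1b, Fancg and the genes called at 16 or 24 months alone) were chosen after their values were seen.

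Alternatives were the scanner-processed signals, the deposited values, green alone after quantile normalization, no background correction, a filter on dim probes, the probe with the lowest p, a variance floor from a moving average over 500 genes, the 6 CR arrays alone, extraction day as a random block or additive term, and each array left out. Leaving saturated members out of list medians was added after the data were seen.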

Additional observations from a re-analysis of the deposited data

Results flagged for a closer look

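Among the 4 older CR animals, a value far from the other 3 was looked for in 74 genes and found in 2, or 2.7% of them, and chance gives about 1 in 20. The 74 held genes called on AL and probes without a symbol, but not every gene named above. For Galc, replicate 1 at 16 months read 3.60 while the others read 3.90, 3.90 and 3.91, a gap of 0.971 of the whole range. For 4933437N03Rik, replicate 2 at 16 months read 4.21 while the others lay between 3.65 and 3.70, a gap of 0.908 of the range.

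For 9 genes the test of the difference between the CR and the AL age effect passed an adjusted p of 0.1 at 1.5-fold in limma. The difference, CR minus AL in log2, was -1.01 for Topors, -1.21 for Tbc1d15, -0.953 for Zbtb7a, -1.49 for Pa2g4 and 0.597 for Prrt3. For probes without a symbol it was -0.957 for Z00008535-1, -1.58 for Z00040734-1, -0.78 for Z00041632-1 and 0.707 for Z00048400-1. In each of the 9 the age effect had opposite signs on the diets. All CR values at 16 and 24 months carry the second extraction day, which cannot be told apart from the CR side of the difference.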

How the results depend on the processing

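Among the genes whose changes were recomputed under the alternatives there were 0 reversals of direction, but sizes moved. These were called genes of the age comparisons and of the difference between diets. Uncalled genes were among them only for the CR age effect and for 24 minus 16 months. For the CR age effect, 12 of the 24 alternatives leave the CR means as they are or take the age term from AL animals. Those 12 do not test its direction on CR. In the other comparisons too, a fit without an array of an uninvolved group leaves the change as it is. Over the alternatives, additive terms included, the CR age change ran from 0.193 to 1.48 for Tshb, 0.039 to 0.906 for Klf17, 0.319 to 0.888 for Galc, 0.329 to 1.48 for LOC381936, -1.6 to -0.987 for Srfbp1, 0.541 to 2.37 for Z00027109-1 and 0.241 to 0.926 for Z00057813-1, and at 24 months from 0.792 to 2.11 for Ccl8 and 0.0106 to 0.772 for Z00072210-1. Counts moved as follows, with the cause not tested except where given. For the CR age effect (7 called), the scanner-processed signals gave 268, deposited values 173, green alone 275, additive terms 58, and 0 came without background correction (3537 genes at an unadjusted p under 0.05 in limma), with the variance floor (1079) and with only the 6 CR arrays (4406). With additive terms the age term rests on AL animals by construction. For 16 minus 6 months (8), these settings gave 121, 78 and 5, then 4 without background correction, and 0 with the floor (790) and with only the CR arrays (3274). For 24 minus 6 months (8), they gave 308, 204 and 640, and 0 without background correction (3422), with the floor (1053) and with only the CR arrays (4091). For 24 minus 16 months (3), scanner-processed signals gave 6, deposited values 1 and no background correction 1, and the floor (347) and the CR arrays alone (1775) gave 0. For AL (62), deposited values gave 29, no background correction 21 and the floor 0 (1503). For the difference between diets (9), scanner-processed signals gave 113, deposited values 62, green alone 0 (5241), no background correction 1 and the floor 0 (967). The red reference count (239) was 58 without background correction.

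Leaving out 1 array gave 1 to 40 genes for the CR age effect, 3 to 33 for 16 minus 6 months, 0 to 448 for 24 minus 6, 1 to 67 for 24 minus 16, 1 to 261 for AL and 0 to 60 for the difference. Only the 6 CR arrays were left out in turn for the red reference (0 to 1973), and only the 6 ovary arrays for testis against ovary (9778 to 10016). A group left with 1 array was assumed to vary like the others. The filter on dim probes and the lowest-p probe kept every count of the age comparisons and of the difference within 1.5-fold, and were not run for the red reference or testis against ovary. Extraction day as a random block gave the same values by construction, since the group means already hold it and the estimated correlation was 0.

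The limits are 2 animals at each age, the extraction day, fixed to age between 6 months and later on CR, and low signal over background, 1.33 to 1.69 on the testis arrays, which limits dim genes. Time on the diet rose with age on CR, so age and time on the diet cannot be told apart there. Deposited values cover fewer probes.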
